A study of Mus musculus with 4 samples.

Results

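The core and naive pluripotency transcription factors are the 10 genes Pou5f1, Sox2, Nanog, Esrrb, Klf2, Klf4, Klf5, Tfcp2l1, Tbx3 and Zfp42. They were chosen by name, and all 10 were present among the 24428 genes in the count tables and passed the filter on low counts that left 15763 genes tested. RNA was sequenced from mouse embryonic stem cells of strain 129SvEv that carried 1 copy of Smarca4, the ATPase of the BAF chromatin remodelling complex, as wild type fused to GFP. In G784E cells the other copy, fused to the V5 tag, held the G784E change, described as dominant-negative in the title, and in WT cells that V5-tagged copy was wild type, so that every library came from cells with both copies tagged. Each group had 2 libraries, made from untreated cells at passages 15 to 20 in medium with 15% serum and LIF. The labels do not say whether a group stems from 1 clone or whether replicates were separate cultures, so p-values reflect only how far these libraries lay apart, and that distance may be a technical one. The comparison asks how the G784E change bears on the transcripts of the factors that hold these cells in the pluripotent state.

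In mouse embryonic stem cells, OCT4 (the product of Pou5f1) and SOX2 bind DNA as partners at a composite element and, with NANOG, form the core of a circuit whose members act on each other's genes. Around this core stand the naive factors, which are on in the inner cell mass and in stem cells kept with LIF and fade as cells move towards the epiblast. LIF signals through STAT3, and KLF4, TFCP2L1 and TBX3 are among the factors known to relay or reinforce that input. BAF in these cells, known as esBAF, binds at many of the same enhancers as OCT4 and SOX2.

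Reads counted in genes numbered 6226145 and 8895433 in G784E replicates 1 and 2, and 7027108 and 10083442 in the WT replicates. Levels of single genes are given as CPM, counts per unit of library size after TMM scaling (edgeR's cpm). Olfactory receptor genes, which serve here as a background, had an unscaled sum of 685 and 282 CPM in G784E replicates 1 and 2 and of 684 and 193 CPM in the WT replicates. Smarca4 had 3868 and 3580 CPM in G784E, against 2423 and 2553 CPM in WT, without passing the test (log2 fold change 0.58, SE 0.19; edgeR, adjusted p = 0.119), and reads of its tagged copies are counted together. DESeq2 and limma-voom called it at the same fold (adjusted p = 0.00808 and 0.03).

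None of the 10 factors passed the test between G784E and WT cells, with group as the model's only term. edgeR's quasi-likelihood test with Benjamini-Hochberg adjustment over all tested genes called 0 of 10 at an adjusted p under 0.05, where it called 2.56% of all tested genes. DESeq2 and limma-voom also called 0 of 10, beside 368 and 550 genes over all those tested. With the replicate number added as a block, edgeR called 2 of the 10, Nanog and Klf5, beside 1204 of the 15763 tested genes. The labels give that number no meaning, though same-numbered deviations from the group means correlated at 0.476 across genes. At an unadjusted p under 0.05 there were 2 of the 10, Nanog and Klf2, both higher in G784E, beside 11.6% of all tested genes. The log2 fold changes of the 10 ran from -0.38 for Klf5 to 0.75 for Klf2, with a median of 0.11 beside a median of -0.0016 over all tested genes. For 9 of the 10, the 95% interval lay within a 2-fold change in either direction, and the exception was Klf2, the factor with the fewest reads. In these bulk libraries a smaller share of cells that express a gene and less of its RNA per cell cannot be told apart.

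**Figure D1:**
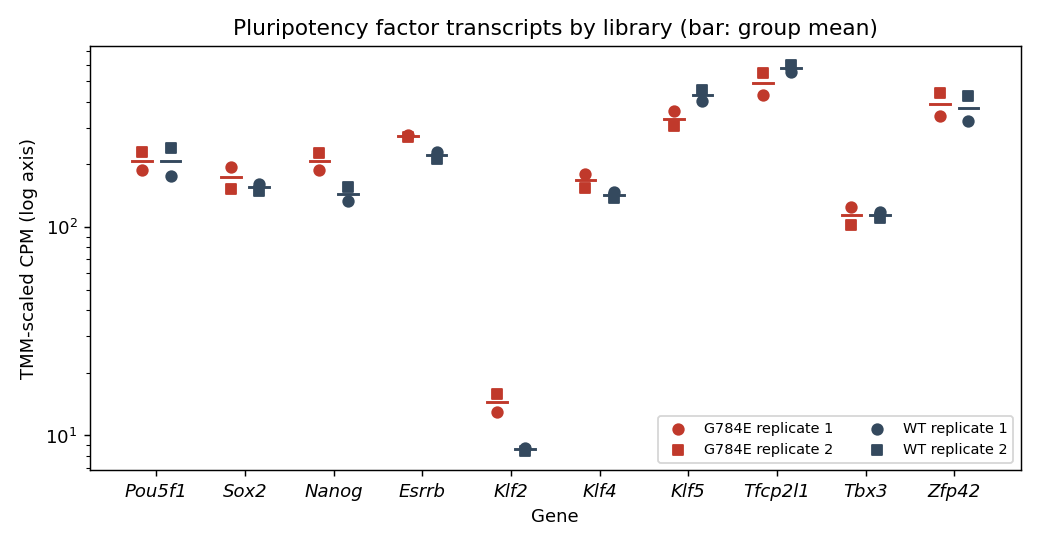
TMM-scaled CPM on a log axis for each of the 10 factors, with G784E libraries left of WT libraries, a circle for replicate 1, a square for replicate 2 and a bar at each group mean (n = 2). Klf2, at 8.43 to 15.9 CPM, lies far below the other 9 factors, which lie between 102 and 598 CPM.

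The core pair was close to level between the groups. Pou5f1 had 188 and 229 CPM in G784E, against 176 and 239 CPM in WT. The groups overlapped, and replicate 2 was the higher library in each. The log2 fold change was 0.01 (SE 0.21; edgeR, adjusted p = 1), with a 95% interval of the fold from 0.744 to 1.36. Sox2, the HMG-box partner of OCT4, stood at 195 and 153 CPM in G784E and at 162 and 149 CPM in WT, again with overlap. Its log2 fold change was 0.16 (SE 0.20; edgeR, adjusted p = 0.929), and the interval of the fold ran from 0.836 to 1.495. A p that misses the threshold does not show that the groups were equal, and these intervals are the range of folds left by 4 libraries. Pou5f1 also has processed copies elsewhere in the genome: 15.9% of the 50-base windows of its longest transcript recur in transcripts of 2 other genes, Gm19553 and Gm5712. Reads without a unique alignment, 55.4% to 61.8% of each table's total, entered no gene's count, and how many of them came from Pou5f1 was not tested.

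Nanog, the homeodomain factor that steadies self-renewal and whose level varies from cell to cell in serum and LIF, was higher in each G784E library than in each WT library. It stood at 187 and 227 CPM in G784E and at 134 and 155 CPM in WT. The fold was 1.43 (log2 fold change 0.52, SE 0.20; interval of the fold 1.07 to 1.92), and it did not pass in edgeR (adjusted p = 0.252; unadjusted p = 0.0172). The log2 ratio was 0.49 between the libraries numbered 1 and 0.55 between those numbered 2. The log2 fold change was 0.30 without G784E replicate 2, the lowest value among the alternatives run. With the replicate number as a block, Nanog passed (0.52, edgeR, adjusted p = 0.0051). The labels do not explain that number, though same-numbered libraries deviated alike, as given above. Of the 50-base windows of Nanog's longest transcript, 4.76% recur in transcripts of 55 other genes.

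Nanog is shown with its promoter because that short stretch holds a binding element for both core factors. The sequence is the 250 bases before the upstream of 2 listed starts, from RefSeq on build GRCm38.p6, which is not the mm9 build of the counts. Promoters were in the table for 8 of the 10 factors, with Klf5 and Tbx3 not among them. Motifs searched on both strands were ATGCAAA (the octamer core bound by OCT4), CATTGT (SOX core), GGGNGTGG (KLF), TCAAGGTCA (ESRRB), TTCNNNGAA (STAT), TCACACCT (T-box) and AANATGGC (YY1 and REX1). The octamer core and the SOX core were also searched as a pair 1 base apart, a form chosen with the known Nanog element in mind. Capitals mark matches to any of the 7 single motifs.
Nanog, chr6:122707239-122707488, plus strand: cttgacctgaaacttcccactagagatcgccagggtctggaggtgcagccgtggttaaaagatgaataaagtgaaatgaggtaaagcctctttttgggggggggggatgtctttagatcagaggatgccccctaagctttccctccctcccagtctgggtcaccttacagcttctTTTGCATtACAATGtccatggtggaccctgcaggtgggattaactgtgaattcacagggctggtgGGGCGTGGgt

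In the Nanog promoter the octamer core lies 75 to 69 bases and the SOX core 67 to 62 bases before the start, both on the minus strand and 1 base apart, and a KLF match lies 10 to 3 bases before it. Of the 32851 promoters of the same length in the table, 2 held the pair, and both were those of Nanog's own 2 starts. The octamer core alone was in 4.12% of promoters, the SOX core in 10.7% and the KLF motif in 15.9%. Sox2 and Zfp42 were the other members with an octamer core, at 99 to 93 and at 185 to 179 bases before the start. Tfcp2l1 held 2 KLF matches within 61 bases of its start, and Zfp42 and Pou5f1 held 1 each. Klf2 and Klf4 had no match to any of the 7, Esrrb had 1 STAT match (a motif in 7.02% of promoters), and none of the 8 held the ESRRB, T-box or YY1 motif (0.387%, 1.12% and 3.91% of promoters). A match is only a run of letters, and no binding was measured here. The next 3 sequences show the octamer core outside the pair, in Sox2 and Zfp42, and the repeated KLF match of Tfcp2l1.
Sox2, chr3:34649745-34649994, plus strand: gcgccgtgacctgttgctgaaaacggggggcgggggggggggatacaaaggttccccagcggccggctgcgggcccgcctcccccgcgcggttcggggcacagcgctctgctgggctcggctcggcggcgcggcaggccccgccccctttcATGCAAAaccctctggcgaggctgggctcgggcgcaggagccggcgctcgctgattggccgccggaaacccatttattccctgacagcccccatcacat
Zfp42, chr8:43307010-43307259, minus strand: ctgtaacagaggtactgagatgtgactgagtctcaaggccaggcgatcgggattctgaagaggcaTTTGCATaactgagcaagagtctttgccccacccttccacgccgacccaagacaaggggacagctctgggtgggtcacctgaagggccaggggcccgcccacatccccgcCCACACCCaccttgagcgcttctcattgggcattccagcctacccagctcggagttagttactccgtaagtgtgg
Tfcp2l1, chr1:118627695-118627944, plus strand: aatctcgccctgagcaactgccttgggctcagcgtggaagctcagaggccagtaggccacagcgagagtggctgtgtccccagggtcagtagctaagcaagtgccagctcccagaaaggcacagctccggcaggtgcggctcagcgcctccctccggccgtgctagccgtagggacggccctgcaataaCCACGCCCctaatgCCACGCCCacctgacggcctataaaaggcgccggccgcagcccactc

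Of the 3 octamer carriers, Nanog was higher in both G784E libraries, while Sox2 and Zfp42 overlapped between the groups. Of the 4 KLF carriers, Nanog was higher, Tfcp2l1 lower, and Pou5f1 and Zfp42 overlapped. Esrrb, Klf2 and Klf4, whose promoters held neither motif, were also higher in G784E without overlap. Of all tested genes, 19.4% were higher and 19.4% lower without overlap. Whether a motif goes with the direction of a difference was not tested.

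The orphan nuclear receptor gene Esrrb, a target of NANOG that can stand in for it in self-renewal, was also higher in each G784E library. It stood at 277 and 271 CPM in G784E and at 230 and 211 CPM in WT. The fold was 1.24, with an interval from 0.937 to 1.64 (log2 fold change 0.31, SE 0.20; edgeR, adjusted p = 0.640). The estimate kept to the range 0.26 to 0.37 over the 13 alternatives.

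The 3 Kruppel-like factors, zinc finger proteins that bind GC-rich motifs and partly replace one another in stem cells, did not lie on the same side. Klf2, whose protein is known to be lost after ERK signalling, had 79 and 135 raw counts in G784E and 66 and 83 in WT, or 12.9 and 15.9 CPM against 8.71 and 8.43 CPM. Its fold of 1.69 was the largest of the 10 and the least exact, with an interval from 1.06 to 2.67 (log2 fold change 0.75, SE 0.32; edgeR, adjusted p = 0.326; unadjusted p = 0.0282). Klf4, a LIF and STAT3 target, stood at 181 and 154 CPM in G784E and at 147 and 138 CPM in WT. The groups did not overlap, and the fold was 1.17 with an interval from 0.883 to 1.56 (log2 fold change 0.23, SE 0.20; edgeR, adjusted p = 0.808). Klf5 ran the other way, at 359 and 304 CPM in G784E and 404 and 456 CPM in WT. It was 1.30-fold lower in G784E (log2 fold change -0.38, SE 0.20; interval of the fold 0.580 to 1.02), and it did not pass in edgeR (adjusted p = 0.506). The log2 ratio of Klf5 was -0.17 between the libraries numbered 1 and -0.58 between those numbered 2. With the replicate number as a block, Klf5 passed (-0.38, edgeR, adjusted p = 0.0331).

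Per unit of length the 3 factors added up to 706 and 606 TPM in G784E and to 738 and 724 TPM in WT. TPM here is computed from the counts and the summed exon length of each gene. Klf5 made up 51.0% and 49.7% of that sum in G784E and 59.5% and 63.7% in WT. Klf4 made up 43.8% and 43.0% in G784E and 36.8% and 33.0% in WT, and Klf2 5.18% and 7.31% in G784E and 3.61% and 3.32% in WT. The ratio of Klf5 to Klf4 was 1.17 and 1.16 in G784E and 1.62 and 1.93 in WT. In each of these shares, and in the ratio, both G784E libraries lay on the same side of both WT libraries. Klf2 and Klf4 were already higher and Klf5 lower in CPM without overlap. The shares and the ratio set these opposite differences against each other and add no separate result. No test was run on these shares and ratios; with 2 libraries a group, the smallest p that an exact two-sided permutation test can give is 0.333.

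**Figure D2:**
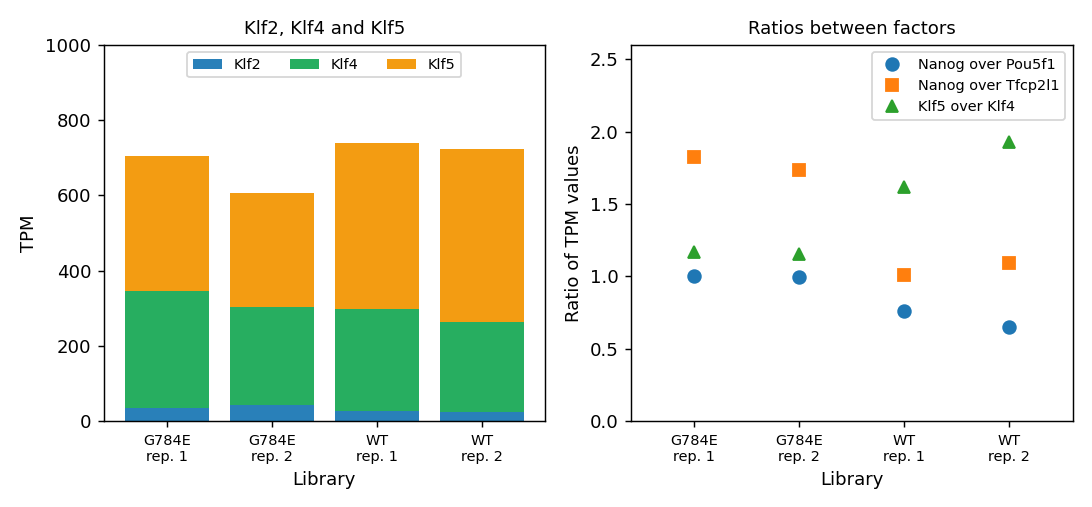
Left, stacked TPM of Klf2, Klf4 and Klf5 in each library, with Klf5 at 301 to 360 TPM in G784E and 440 to 461 TPM in WT. Right, ratios of TPM values in each library; Nanog over Pou5f1 is 1.00 and 0.994 in G784E and 0.760 and 0.653 in WT, and Klf5 over Klf4 is lower in both G784E libraries than in both WT libraries.

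Of the other naive factors, Tfcp2l1, a CP2-family factor downstream of LIF and STAT3, lay somewhat lower in G784E, at 431 and 551 CPM against 557 and 598 CPM in WT. The groups were separated by a narrow gap, and Tfcp2l1 was 1.18-fold lower in G784E (log2 fold change -0.23, SE 0.20; interval of the fold 0.638 to 1.13; edgeR, adjusted p = 0.807). Tbx3, a T-box factor that sustains self-renewal and also takes part in endoderm programmes, stood at 125 and 102 CPM in G784E and at 118 and 111 CPM in WT. These overlapped, with a log2 fold change of -0.01 (SE 0.20; interval of the fold 0.743 to 1.33; edgeR, adjusted p = 1). Zfp42, which encodes the naive marker REX1, stood at 341 and 440 CPM in G784E and at 323 and 427 CPM in WT. They overlapped as well, and replicate 2 was higher in each group (log2 fold change 0.06, SE 0.21; interval of the fold 0.772 to 1.41; edgeR, adjusted p = 0.999). For Zfp42, 9.17% of the 50-base windows of the longest transcript recur in its annotated copy Zfp42-ps1.

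Across the 10, the libraries of the groups did not overlap for 6. Nanog, Esrrb, Klf2 and Klf4 were higher in G784E, beside 19.4% of all tested genes that were higher without overlap, and Klf5 and Tfcp2l1 were lower, beside 19.4% that were lower without overlap. No statement on the list follows from this count. The order of the log2 fold changes had Klf2 and Nanog at the upper end and Tfcp2l1 and Klf5 at the lower, with Pou5f1, Tbx3 and Zfp42 within 0.07 of 0.

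**Figure D3:**
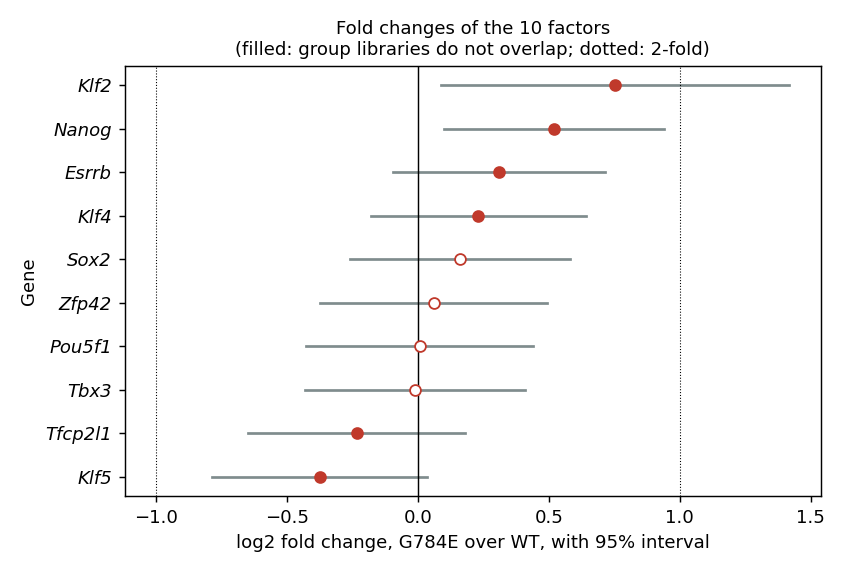
log2 fold change of each factor, G784E over WT, with its 95% interval from edgeR, ordered by size; filled points mark factors whose group libraries do not overlap and dotted lines a 2-fold change. The intervals of Nanog (0.10 to 0.94) and Klf2 (0.09 to 1.42) lie above 0 before adjustment over all genes, and only that of Klf2 reaches past 1.

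Compared per length, the order of the factors was much the same in both groups. In G784E, Zfp42 was the highest at 1075 ± 180 TPM (SD, n = 2), followed by Pou5f1 at 480 ± 62.7, Nanog at 478 ± 60.7, Sox2 at 438 ± 79.9, Klf5 at 330 ± 41.8, Klf4 at 285 ± 34.3, Tfcp2l1 at 269 ± 43.7, Esrrb at 235 ± 6.40, Tbx3 at 89.0 ± 13.8 and Klf2 at 40.4 ± 5.48 TPM. In WT, Zfp42 stood at 1081 ± 158 TPM (SD, n = 2), Pou5f1 at 501 ± 82.0, Klf5 at 450 ± 15.1, Sox2 at 413 ± 44.5, Nanog at 351 ± 19.9, Tfcp2l1 at 334 ± 0.214, Klf4 at 256 ± 23.4, Esrrb at 200 ± 22.3, Tbx3 at 94.4 ± 9.04 and Klf2 at 25.3 ± 1.89 TPM. Zfp42 at the head and Tbx3 and Klf2 at the foot stood clear of their neighbours in every library. In G784E the libraries of Pou5f1, Nanog and Sox2 overlapped, as did those of Klf5 with Klf4, of Klf4 with Tfcp2l1 and of Tfcp2l1 with Esrrb, so their order among themselves is not settled. In WT, Pou5f1, Klf5 and Sox2 each overlapped with the others, so their order is not settled either. Nanog ranked the third in G784E and the fifth in WT, and Klf5 the fifth in G784E and the third in WT. With the longest transcript as the length, Klf5 ranked the third in both groups and Nanog the fourth in G784E and the fifth in WT.

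The ratio of Nanog to Pou5f1, per length, was 1.00 and 0.994 in G784E and 0.760 and 0.653 in WT. The ratio of Nanog to Tfcp2l1 was 1.82 and 1.74 in G784E and 1.01 and 1.09 in WT. Both ratios were higher in each G784E library, while that of Sox2 to Pou5f1 overlapped, at 1.14 and 0.729 in G784E and 1.00 and 0.683 in WT. Nanog was already higher and Tfcp2l1 lower in CPM without overlap, so the ratio of Nanog to Tfcp2l1 adds no separate result. The sum of the 10 factors was 3595 and 3845 TPM in G784E and 3582 and 3828 TPM in WT, so within each number the groups differed far less than replicate 1 from replicate 2.

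Other regulators of the same circuit also yielded no call. Of 15 tested, among them Nr0b1, Prdm14, Stat3, Tcf7l1, Zfp281 and Foxd3, edgeR and DESeq2 called 0 and limma-voom 1, Gbx2, and the median log2 fold change was 0.07. At an unadjusted p under 0.05 in edgeR there were 3, all higher in G784E: Gbx2, Nr5a2 and Ncoa3, beside 11.6% of all tested genes. Upper-quartile scaling in edgeR called these 3, beside 440 genes over all those tested. Under TMM scaling edgeR called 2.56% of all tested genes, and DESeq2 and limma-voom called 368 and 550 genes. Gbx2, a homeobox gene downstream of LIF, had 88.4 and 92.0 CPM in G784E, against 41.9 and 64.0 CPM in WT (log2 fold change 0.77, SE 0.22; edgeR, adjusted p = 0.0697). Nr5a2, a nuclear receptor known to act on Pou5f1 and Nanog, had 122 and 133 CPM in G784E, against 77.1 and 91.6 CPM in WT (0.59, SE 0.20; edgeR, adjusted p = 0.161). The most abundant, Sall4 and the ESRRB coactivator gene Ncoa3, had log2 fold changes of 0.40 and 0.51 (edgeR, adjusted p = 0.466 and 0.256).

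Of 16 listed targets of the core factors, 15 were tested, with a median log2 fold change of 0.19. edgeR and DESeq2 called 0 of these, beside 2.56% of all tested genes in edgeR and 368 genes in DESeq2. limma-voom called 1, Dppa2, beside 550 genes over all those tested. Dppa2 had 46.5 and 57.6 CPM in G784E, against 23.5 and 34.1 CPM in WT (log2 fold change 0.85, SE 0.24, adjusted p = 0.0567 in edgeR). At an unadjusted p under 0.05 in edgeR there were 3, all higher in G784E: Dppa2, Gdf3 and Jarid2, beside the same 11.6%. Fgf4, the textbook target of the OCT4 and SOX2 pair, had a log2 fold change of 0.05 (SE 0.20). The most abundant, the methylcytosine dioxygenase gene Tet1 and the Polycomb partner gene Jarid2, had -0.11 and 0.49 (SE 0.19 and 0.21). Lefty1 was not tested, at 2 and 5 counts in G784E and 10 and 7 in WT.

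Among 31 tested relatives of the 10 factors, 1 was called, the Kruppel-like gene Klf6, beside 1.89% of all tested genes called lower. It fell to 83.3 and 94.6 CPM in G784E, against 141 and 169 CPM in WT (log2 fold change -0.80, SE 0.20; edgeR, adjusted p = 0.0312). RLE scaling ended this call (-0.80, adjusted p = 0.0519 in edgeR), as did leaving out G784E replicate 1 (-0.72), WT replicate 1 (-0.93) or WT replicate 2 (-0.63), with adjusted p between 0.082 and 0.528. At an unadjusted p under 0.05 in edgeR there were 8 of the 31, 3 higher and 5 lower in G784E, beside 11.6% of all tested genes. The median of the relatives was -0.03, and the most abundant, Pou2f1 (OCT1) and Klf9, had log2 fold changes of -0.04 and 0.20. Pou5f2, Tbx2 and Sox3 (also a listed primed gene) were not tested, each with at most 12 counts in a library. Pou3f1, tested here, is also a listed primed gene.

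Of 13 tested genes of the next state, formative and primed pluripotency, 1 rose and 3 fell, beside 0.672% of all tested genes called higher and 1.89% called lower. Dnmt3a, a de novo DNA methyltransferase gene, rose (log2 fold change 1.43), and its cofactor gene Dnmt3l (-1.36), the epiblast factor gene Otx2 (-0.90) and Car4 (-1.73) fell, with adjusted p in edgeR of 7.88e-05, 0.000399, 0.0152 and 0.0134. Otx2 did not pass when WT replicate 2 was left out (-0.71, adjusted p = 0.411 in edgeR), nor Car4 when WT replicate 1 was (-1.42, adjusted p = 0.561). limma-voom, which called 550 genes over all those tested, called 1 more, Tcf15. It had 54.8 and 38.4 CPM in G784E, against 20.1 and 30.6 CPM in WT (log2 fold change 0.87, SE 0.25, adjusted p = 0.072 in edgeR). The abundant Dnmt3b did not pass (-0.42, SE 0.20), and the median of the list was -0.30.

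**Figure D4:**
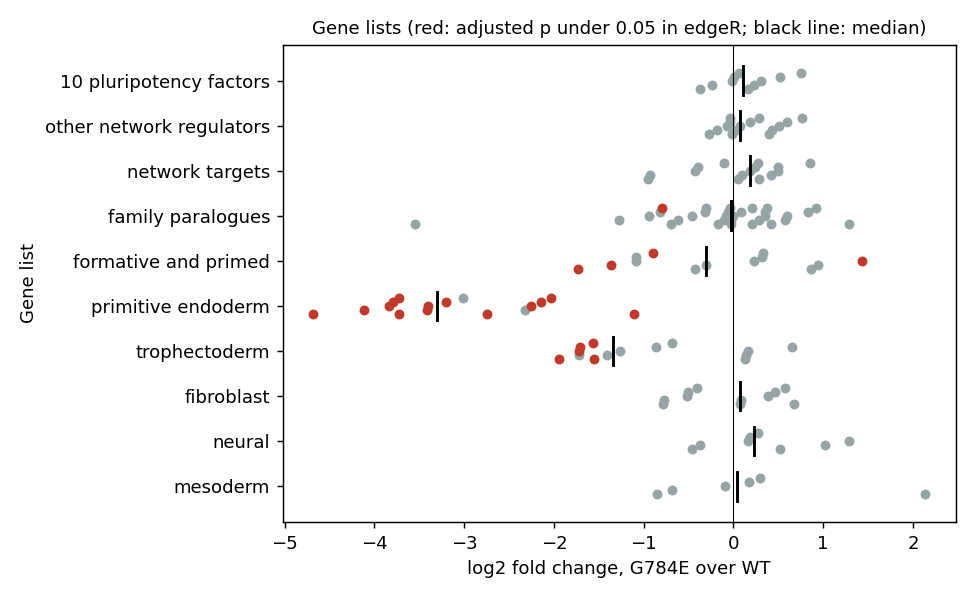
log2 fold change, G784E over WT, of each tested gene in 10 lists, red where edgeR's adjusted p is under 0.05, with a black line at each list's median. The 10 factors and the other regulators and targets of their circuit lie around 0 with no red point, whereas the primitive endoderm list lies at a median of -3.31 with 14 of 16 genes red. Every list was chosen with earlier results of these data known.

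All 10 factors were expressed in every library, as the label of embryonic stem cells implies, and RNA of primitive endoderm markers was present beside them. The marker lists were chosen with earlier results of these data known. Their counts of calls, set beside the share of all tested genes, are therefore a description and no independent test. The 16 primitive endoderm markers summed to 1898 and 1967 CPM in G784E, against 8972 and 9380 CPM in WT. Of these, 14 fell (median log2 fold change -3.31), beside 1.89% of all tested genes called lower. Gata6, whose product opposes NANOG in the inner cell mass, was among them, at 2.29 and 2.59 CPM in G784E and 33.1 and 32.4 CPM in WT (edgeR, adjusted p = 4.05e-08, at a log2 fold change of -3.73, SE 0.32). Cubn, Col4a1, Lrp2, Sparc and Lamc1 had log2 fold changes of -4.68, -3.80, -3.84, -2.75 and -1.11, all past the threshold in edgeR, and leaving out G784E replicate 1 ended the call of Lamc1 (-1.07; edgeR, adjusted p = 0.0982). The 14 trophectoderm markers summed to 111 and 97.9 CPM in G784E and to 212 and 203 CPM in WT. Of these, 5 fell (Krt18, Krt19, Tead4, Eomes and Krt8), beside the same 1.89%, and the median was -1.34. The other 9 were not called, and 4 of them lay above 0. These were the abundant Tfap2c at 0.65 (SE 0.24), and Gata2 at 0.16, Tfap2a at 0.15 and Cdx2 at 0.13. Gata2, Tfap2a and Cdx2 had low means of 3.35, 3.73 and 1.73 CPM over all libraries. Fibroblast markers summed to 167 and 148 CPM in G784E and 165 and 127 CPM in WT, neural markers to 93.8 and 65.3 CPM in G784E and 72.0 and 59.3 CPM in WT, and mesoderm markers to 51.4 and 38.8 CPM in G784E and 57.6 and 63.0 CPM in WT. Of their 11, 8 and 6 tested genes, edgeR, DESeq2 and limma-voom called 0, where edgeR called 2.56% of all tested genes. In these lists 0, 1 and 3 had an unadjusted p under 0.05 in edgeR, beside 11.6% of all tested genes. Their medians were 0.07, 0.23 and 0.04, with Fbln2 at 0.09, Col1a1 at 0.46, Elavl3 at 0.28, Nes at 0.18, Tbx20 at -0.85 and Hand1 at -0.68 as the most abundant members. Hand1 is also on the trophectoderm list, and the neural marker Sox1 is also among the relatives of the factors. With 2 libraries a group, any gene whose groups do not overlap differs alongside the lower endoderm and trophectoderm sums in G784E. The part of these sums in the differences in Nanog, Esrrb, Klf2, Klf4, Klf5 and Tfcp2l1 given above was not tested.

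The genes whose profile over the 4 libraries was most like the mean profile of the 10 factors were Bche, Zc3h4 and Wdr41. Their log2 CPM, centred on each gene's own mean, differed from that profile by a root mean square of 0.0115, 0.0118 and 0.0121. The mean profile itself moved little, at 0.05 and 0.09 relative to its own mean in the G784E libraries and at -0.11 and -0.02 in the WT libraries, and 4 libraries are too few for a test of likeness.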

How the data were processed

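Raw counts of reads per gene symbol, whole numbers in 1 table per library, are what the authors deposited. The submitters' processing notes list CASAVA 1.8.2, Bowtie2 2.1.0, HTSeq, DESeq2 and build mm9. Annotation, counting mode and strand setting: not given in the sources used here. Summary rows, at 83.3% to 88.7% of each table, were kept out of library sizes and tests. A floor of 3 counts equals 0.298 to 0.482 CPM, which covers counting error only.

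Genes were filtered with filterByExpr (minimum count 10, total 15) and tested with the quasi-likelihood test of edgeR 4.0.16 (R 4.3.3) under TMM scaling, with group as the model's term and Benjamini-Hochberg adjustment over 15763 genes at 0.05. Intervals are 95%, from the SE and 23.3 degrees of freedom. The choices varied were scaling (RLE, upper quartile), filter (none, or 1 CPM in 2 libraries and 50 counts), tool (DESeq2 1.42.0, limma-voom from limma 3.58.1), prior (robust), replicate block, 1 library omitted at a time and, added after seeing the data, omission of the ribosomal gene Rn45s. edgeR with and without the replicate block, DESeq2 and limma-voom were first tested on simulated counts. Those counts had a smaller spread than the data (common coefficient of variation 0.317) and no replicate effect. The other choices, the TPM values and the motif search were not simulated.

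TPM used GENCODE M21 exon lengths (GRCm38), which matched 96.3% of symbols and 86.8% of gene counts (98.3% without Rn45s, which had no length and is not in the TPM total). Window sharing used its transcripts. The 10 factors and every list were chosen with earlier results of these data known. Genes named besides the 10 are Smarca4, list members past the threshold (at most 3 in each direction by adjusted p), the 2 most abundant of each list and the 3 nearest in profile to the factors' mean. Other genes were chosen after their values were seen.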

Additional observations from a re-analysis of the deposited data

How the results depend on the processing

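In all 13 alternatives Nanog, Esrrb, Klf2, Klf4, Klf5 and Tfcp2l1 kept the direction of their log2 fold change, and only the replicate block called any of the 10. These are the factors whose group libraries do not overlap, and every alternative reuses the same libraries. Their constant direction is therefore no separate support. With the replicate number as a block, 2 passed, Nanog (0.52, edgeR, adjusted p = 0.0051) and Klf5 (-0.38, edgeR, adjusted p = 0.0331). With the block edgeR called 1204 genes (658 lower, 546 higher in G784E), against 404 with no block, and with it 4 regulators, 3 targets, 6 relatives, 6 formative and primed genes (Dnmt3b and Tcf15 in addition) and 2 mesoderm markers passed. The labels give no meaning to the numbers, and same-numbered deviations from the group means correlated at 0.476 across genes. Unscaled olfactory receptor sums were 685 and 684 CPM in G784E and WT replicates 1, and 282 and 193 CPM in replicates 2. Summary rows made up 88.3% and 88.7% of the tables of replicates 1, and 83.7% and 83.3% of those of replicates 2. The model with group as its only term leaves such differences in the spread, and their source was not tested. Pou5f1 turned to -0.028 with no filter and -0.024 without Rn45s, where the median of the 10 was 0.072 and 0.077. Upper-quartile scaling called 3 regulators, 1 target and 2 relatives, RLE 0 relatives, no filter 2 relatives, and limma-voom 1 regulator, 1 target, 3 relatives and 186 higher genes. Over all tested genes these settings called 440, 378, 413 and 550, in that order.

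With 1 library left out, the genes called ran from 176 to 740 (150 to 579 lower, 26 to 161 higher), and the 10 factors yielded 0 calls each time. The count was 740 when G784E replicate 2 was left out, 176 when WT replicate 1 was and 215 when WT replicate 2 was. A lone library is then assumed to vary like the other group. The median of the 10 ran from 0.12 to 0.25, highest when WT replicate 2 was left out. Calls and medians ran from 0 to 1 and -0.024 to 0.24 for regulators, 0 to 1 and -0.0054 to 0.21 for targets, 0 to 2 and -0.21 to 0.094 for relatives, 3 to 6 and -1.43 to -0.99 for trophectoderm, and 0 to 1 and -0.41 to 0.93 for mesoderm. Medians ran from -0.48 to -0.20 for formative and primed genes, -3.48 to -3.16 for primitive endoderm and -0.17 to 0.69 for neural markers. Log2 fold changes that crossed 0 were those of Pou5f1 (-0.22 to 0.27), Sox2 (-0.029 to 0.25), Tbx3 (-0.17 to 0.059), Zfp42 (-0.21 to 0.31), Tet1 (-0.31 to 0.14), Pou2f1 (-0.36 to 0.18), Klf9 (-0.036 to 0.36), Elavl3 (-0.23 to 0.59) and Nes (-0.11 to 0.36). The cause was not tested. Among the 10 factors Klf2 had the fewest reads, at 66 to 135 counts a library.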
